A study of Homo sapiens with 6 samples.

Results

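The 40 genes described here act in the G2 phase and in mitosis, from the cyclins and kinases that start cell division to the motors and scaffolds of the spindle. They were chosen by gene symbol: the transcript rows with each symbol were summed by gene, which gave 40 genes of 30717 in the count table. Each symbol matched 1 gene, and all 40 passed the filter on low counts that left 20721 genes for testing. RNA had been sequenced from T24 and UMUC3 (UM-UC-3) cells, established human bladder cancer lines, with and without knockdown of circPTK2, a circular RNA made from the PTK2 gene, in a study concerned with metastasis and gemcitabine resistance. There were 2 knockdown libraries and 1 control library from T24, and 2 knockdown libraries and 1 control library from UMUC3. The titles name numbered siRNAs and a matching control, while the series' design text names sh derivatives of the lines, so the reagent cannot be stated with certainty. In T24 the siRNA number of the title and that of the data column are exchanged, and replicate numbers here follow the titles. The labels do not name separate cultures, so every p-value below measures only the spread between these libraries, which may be technical. The 2 knockdown libraries of a line carry different siRNA numbers, so their spread may also include a difference between siRNAs. With 1 control library per line, that library is assumed to vary as much as the knockdown pairs. Knockdown of the circle itself was not checked, since its reads overlap those of linear PTK2.

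Entry into mitosis is driven by CDK1 bound to cyclin B, which is switched on by CDC25 phosphatases and reinforced by the kinases PLK1 and Aurora A. At the kinetochore, the spindle checkpoint proteins MAD2, BUB1, BUBR1 and BUB3 hold back the anaphase-promoting complex until chromosomes are attached, after which CDC20 and the E2 enzyme UBE2C let it destroy securin and the cyclins. Most of these genes are transcribed late in the cell cycle. Their promoters are known for CCAAT boxes, bound by NF-Y, and for a cell cycle homology region (CHR), bound by the MuvB core that works with p130 and E2F4 as the repressor DREAM and with B-MYB and FOXM1 as an activator.

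RefSeq start-site windows on GRCh38.p14, each of 300 bases from 250 before to 50 after a start, were matched for 33 of the 40 genes and held 43 starts. AURKA, BIRC5, BUB3, FOXM1, TPX2, TTK and UBE2C were not matched. A CHR was searched as TTTGAA or TTCGAA and a CCAAT box as CCAAT, each on both strands, so that TTCAAA and ATTGG are the opposite-strand spellings. Other spellings of a CHR were not searched. CHR letters stood in 29 of the 43 windows (67.4%), against 16.4% of all 35116 windows in the table. CCAAT letters stood in 74.4% of the windows, against 34.6% of all windows, and both motifs together in 55.8%, against 6.38%. CHR letters began within 50 bases of the start in 53.5% of the windows, against 5.01% of all. In 35 windows of 28 DNA replication genes, which are expressed earlier in the cycle, CHR letters occurred in 5.71% and CCAAT letters in 60.0%. The CHR share was not particular to the 40 genes. It was 65.6% in windows of other spindle and cytokinesis genes and 45.5% for condensin, cohesin and chromatid separation. Other kinetochore and centromere genes had 44.8%, G2/M entry genes 33.3% and genes of the anaphase-promoting complex 16.7%. These matches describe letters in a window and do not show that a factor binds there.

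**Figure D1:**
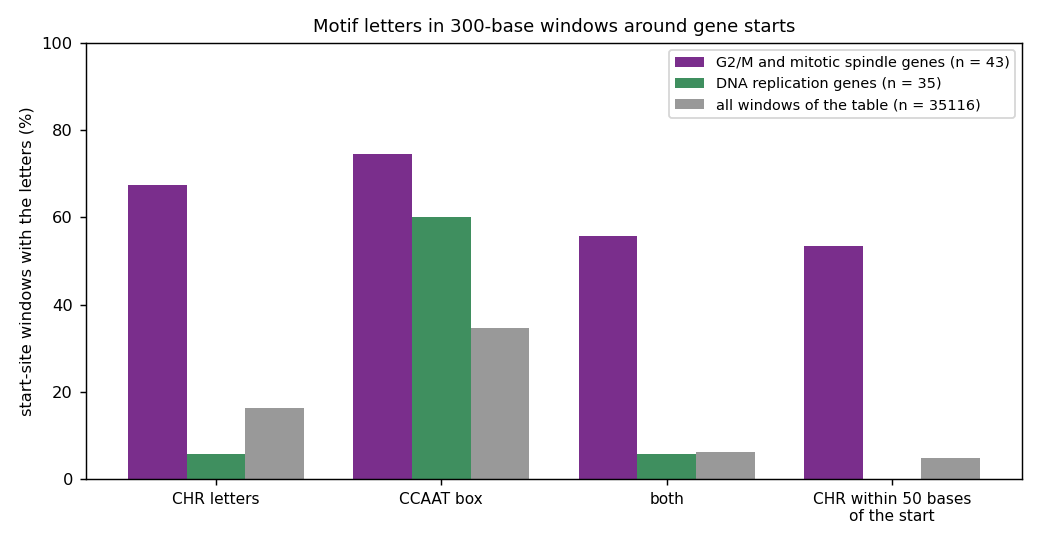
Share of 300-base start-site windows (%, vertical axis) that hold CHR letters, CCAAT letters, both, or CHR letters beginning within 50 bases of the start, for the 40 genes' windows (n = 43), DNA replication genes (n = 35) and all windows (n = 35116). The windows of the mitotic genes stand at 67.4% for CHR letters, above 5.71% for DNA replication genes and 16.4% for all windows.

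The starts of 8 genes that carry the comparisons below are printed from 150 bases before to 30 bases after the start, 5′ to 3′ on the gene's own strand, with CHR and CCAAT letters of either strand in capitals. DEPDC1B (chr5:60700137-60700316, minus strand), PLK1 (chr16:23678739-23678918, plus strand), MAD2L1 (chr4:120066819-120066998, minus strand) and CDC25B (chr20:3796160-3796339, plus strand, the 1 of its 4 annotated starts with both motifs) lay on the same side of the control in all 4 knockdown libraries. CCNB2 (chr15:59104996-59105175, plus strand) and KIF4A (chrX:70289954-70290133, plus strand) stood higher in both UMUC3 knockdown libraries. CCNB1 (chr5:69167000-69167179, plus strand) and PRC1 (chr15:90994506-90994685, minus strand) had the highest fold changes of T24 over UMUC3 among genes past the threshold.
DEPDC1B: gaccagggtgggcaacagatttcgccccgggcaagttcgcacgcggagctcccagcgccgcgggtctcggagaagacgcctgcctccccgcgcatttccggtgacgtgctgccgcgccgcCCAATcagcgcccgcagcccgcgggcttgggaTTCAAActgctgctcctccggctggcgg
PLK1: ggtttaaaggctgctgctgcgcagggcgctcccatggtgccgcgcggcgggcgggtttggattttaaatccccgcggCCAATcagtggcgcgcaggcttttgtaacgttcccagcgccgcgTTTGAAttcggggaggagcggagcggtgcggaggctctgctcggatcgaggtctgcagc
MAD2L1: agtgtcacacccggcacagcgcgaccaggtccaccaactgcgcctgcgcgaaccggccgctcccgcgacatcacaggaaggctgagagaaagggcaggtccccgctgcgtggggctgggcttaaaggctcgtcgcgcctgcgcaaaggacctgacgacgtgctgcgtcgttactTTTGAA
CDC25B: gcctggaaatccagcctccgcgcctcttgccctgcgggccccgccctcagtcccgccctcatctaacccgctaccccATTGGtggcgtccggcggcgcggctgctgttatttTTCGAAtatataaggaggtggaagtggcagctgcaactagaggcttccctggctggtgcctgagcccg
CCNB2: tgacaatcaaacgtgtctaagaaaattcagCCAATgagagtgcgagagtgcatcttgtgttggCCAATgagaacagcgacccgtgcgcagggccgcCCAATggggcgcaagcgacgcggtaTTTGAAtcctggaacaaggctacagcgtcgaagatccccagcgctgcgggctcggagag
KIF4A: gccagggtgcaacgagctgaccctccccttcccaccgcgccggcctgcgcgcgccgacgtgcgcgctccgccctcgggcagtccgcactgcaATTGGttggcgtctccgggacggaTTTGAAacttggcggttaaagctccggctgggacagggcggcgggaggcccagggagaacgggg
CCNB1: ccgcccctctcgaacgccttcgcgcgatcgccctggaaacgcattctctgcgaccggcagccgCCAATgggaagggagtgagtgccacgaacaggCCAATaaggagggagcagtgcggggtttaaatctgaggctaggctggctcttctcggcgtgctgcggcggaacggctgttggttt
PRC1: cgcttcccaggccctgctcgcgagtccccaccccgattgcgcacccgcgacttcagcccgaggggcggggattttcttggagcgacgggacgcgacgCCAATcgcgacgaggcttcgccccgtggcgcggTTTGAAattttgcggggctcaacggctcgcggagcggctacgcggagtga
Counted from the start (base 1, with negative positions before it), the CHR letters begin at -20 in PRC1, at -29 in PLK1 and CCNB2, at -34 in KIF4A and at -38 in CDC25B. In DEPDC1B they begin at 3, on the opposite strand, and in MAD2L1 at 25. MAD2L1 has its CCAAT letters at -229, outside the printed stretch. CCNB1 has a pair of CCAAT boxes in its window and no CHR letters in the spellings that were searched. Both kinds of letters were thus found in genes that were lower and in genes that were higher in the knockdown libraries.

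Total counts were 65111683 to 72362436 per library, of which 55071837 to 60780176 lay in named genes. Of 16 urothelial and epithelial markers, 15 were matched. Their summed level was 3281 to 3465 CPM (counts scaled to the depth of each library over named genes, with TMM factors) in the T24 libraries and 179 to 200 CPM in the UMUC3 libraries. T24 cells held KRT19 at 511 to 543 CPM, whereas UPK1A, UPK1B and KRT20, markers of differentiated urothelium, were at 0. These 3 were at most 0.41 CPM in UMUC3. T24 cells also held GATA3 at 44.2 to 73.5 CPM, FOXA1 at 114 to 152 CPM and PPARG at 62.4 to 63.2 CPM. In UMUC3 these stood at 0.657 to 0.824, 4.33 to 6.27 and 1.96 to 4.94 CPM. UMUC3 cells held KRT8 at 81.5 to 91.0 CPM, whereas CDH1 and EPCAM were at 0. CDH1 was nearly absent from T24 too, at 0 to 0.135 CPM, and EPCAM stood there at 2.02 to 2.39 CPM. Of 7 immune markers, 5 were matched, with sums of 7.64 to 9.34 CPM in T24 and 29.1 to 54.6 CPM in UMUC3, where nearly all of it was CD68. Of 6 stromal and endothelial markers, 4 were matched and summed to at most 8.69 CPM. The 13 mitochondrially encoded genes summed to 30444 and 31861 CPM in the T24 knockdown libraries, against 24030 CPM in the T24 control. In UMUC3 they summed to 38712 and 41887 CPM in the knockdown libraries, against 41243 CPM in the control. The part of these differences in the results below was not tested.

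The mitotic genes spanned a wide range of levels. Per transcript length, in TPM (the length-scaled counterpart of CPM) averaged over the 6 libraries, UBE2C was highest at 759 TPM, followed by CDC20 at 581, PTTG1 at 455 and CDC25B at 447 TPM. The lowest were CENPE at 11.6 TPM, KIF4A at 12.0, CDK1 at 14.6 and ASPM at 16.0 TPM. CDK1, the catalytic partner of the B cyclins, was thus listed far below CCNB1 (216 TPM) and CCNB2 (187 TPM). Transcripts without a gene held 14.9 to 16.1% of each library's counts, and whether they include reads of CDK1 was not tested. Summed over the 40 genes, the level was 8103 and 8255 CPM in the T24 knockdown libraries, against 7865 CPM in the T24 control. In UMUC3 the sum was 8079 and 8294 CPM in the knockdown libraries, against 7345 CPM in the control.

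Knockdown of circPTK2 left most of the 40 mRNAs close to their control levels. In both lines together 36 of the 40 genes had a log2 fold change within 0.5 of 0. In T24 alone 33 did and in UMUC3 alone 32, since opposite effects partly cancel in the joint value. The share of all genes within 0.5 was not computed. The median absolute log2 ratio to the control was 0.15 to 0.26 in the knockdown libraries, against 0.39 to 0.47 over all genes with counts. The lists were not matched for level. The median log2 fold change of the 40 genes in both lines was 0.05, against 0.01 over all tested genes. In bulk RNA, fewer cells in mitosis and less mRNA per cell cannot be told apart. A set of 4 genes lay to 1 side of the control in all knockdown libraries and had an unadjusted edgeR p under 0.05 in each line: DEPDC1B, MAD2L1 and PLK1 were lower and CDC25B was higher. The share of all genes that meets both conditions was not computed. By side alone, all 4 knockdown libraries lay above the control for 13.3% of all genes and below it for 15.1%. In UMUC3 a further group, with CCNB2, CENPF, KIF4A and UBE2C, stood higher in the knockdown libraries, and the median of the 40 genes was 0.15, against 0.00 over all genes. In T24 both medians were 0.00. Without knockdown replicate 2 the UMUC3 median was 0.06. Without the T24 control the fit of both lines gave 0.15, but T24 then has no knockdown contrast, so this value is that of UMUC3 alone.

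No gene of the 40 passed the threshold of an adjusted p of 0.05 in edgeR's quasi-likelihood test in both lines together, where 0.0145% of all tested genes did. The same count of 0 was found in T24, where 0.135% of all genes passed, and in UMUC3, where 0.647% passed. At an unadjusted p under 0.05 the test gave 5 of the 40 genes in both lines (11.6% of all genes), 6 in T24 (12.5% of all genes) and 12 in UMUC3 (16.8% of all genes). DESeq2, on the same design, called 4 of the 40 genes in both lines together (5.48% of all genes with an adjusted p), namely CDC25B as higher and DEPDC1B, MAD2L1 and PLK1 as lower. It called 3 in T24 (6.49% of all genes), namely CDC25B as higher and DEPDC1B and MAD2L1 as lower, and 4 in UMUC3 (10.8%), namely CCNB2, CENPF and KIF4A as higher and DEPDC1B as lower. limma voom called 0 of the 40 in each of these comparisons (0.00965% of all genes in both lines, and 0 genes in T24 and UMUC3). Among genes with a stable transcript make-up, described below, edgeR called 1 of 21 in both lines (1.14% of all such genes), 2 in T24 (4.61%) and 5 in UMUC3 (12.9%).

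Both knockdown libraries lay above the control for 12 of the 40 genes in T24 (34.7% of all genes) and below it for 15 (37.3% of all genes). In UMUC3 both lay above the control for 22 genes (55.0%, against 35.6%) and below it for 9 (22.5%, against 37.1%). All 4 knockdown libraries lay above the control of their line for 7 genes (17.5%, against 13.3%) and below it for 6 (15.0%, against 15.1%), shares near those of all genes. The 7 were ASPM, CCNA2, CDC25B, ECT2, KIF11, TOP2A and UBE2C, and the 6 were AURKA, BUB3, DEPDC1B, KIF2C, MAD2L1 and PLK1.

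**Figure D2:**
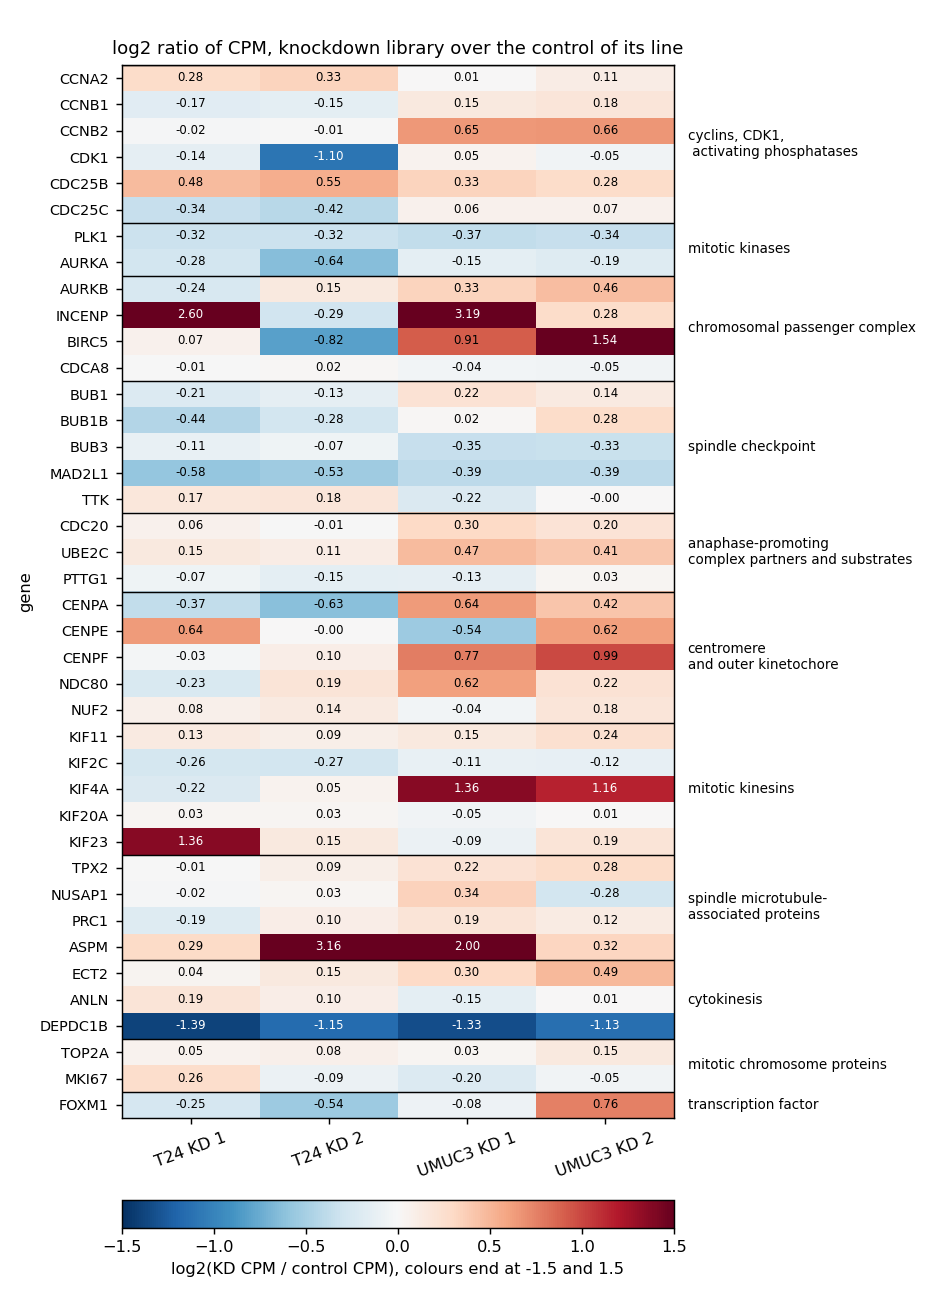
log2 ratio of CPM in each knockdown library (columns) over the control library of its line, for the 40 genes (rows) grouped by role; red is higher and blue lower in the knockdown library, and colours end at -1.5 and 1.5. DEPDC1B is between -1.39 and -1.13 in all 4 columns, while INCENP and ASPM are far from 0 in single columns.

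Among the genes with an unadjusted p under 0.05 in both lines together, DEPDC1B had the largest fold change. DEPDC1B (ENSG00000035499, chromosome 5, 60596912 to 60700190, minus strand, GRCh38) is a DEP and RhoGAP domain protein linked to the loss of adhesion as cells enter mitosis. It stood at 23.7 and 28.0 CPM in the T24 knockdown libraries, against 62.1 CPM in the T24 control. Its UMUC3 level was 11.6 and 13.3 CPM in the knockdown libraries, against 29 CPM in the control. All 4 knockdown libraries lay below the control of their line, with log2 ratios of -1.39 to -1.13. The log2 fold change was -1.24 ± 0.16 (SE) in both lines together (edgeR adjusted p = 0.0923), -1.27 ± 0.19 in T24 (adjusted p = 0.131) and -1.22 ± 0.20 in UMUC3 (adjusted p = 0.101). DESeq2 gave adjusted p = 1.57e-11 in both lines, and edgeR restricted to composition-stable genes gave adjusted p = 0.0329. The other cytokinesis genes, ECT2, which activates RhoA at the cleavage furrow, and the contractile ring scaffold anillin (ANLN), had log2 fold changes of 0.25 and 0.04 in both lines.

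PLK1, the kinase that promotes mitotic entry and spindle assembly (ENSG00000166851, chromosome 16, 23677656 to 23690367, plus strand), stood at 236 and 238 CPM in the T24 knockdown libraries, against 296 CPM in the control. In UMUC3 it stood at 161 and 165 CPM in the knockdown libraries, against 208 CPM in the control. Its ratio to the control was nearly the same in the 4 libraries, with log2 values of -0.32, -0.32, -0.37 and -0.34. The fitted log2 fold change in both lines was -0.34 ± 0.09 (edgeR adjusted p = 0.296, DESeq2 adjusted p = 0.00249). AURKA, the centrosomal kinase that activates PLK1, stood at 55.9 and 43.4 CPM in the T24 knockdown libraries, against 67.9 CPM in the control, and at 32.8 and 31.8 CPM in the UMUC3 knockdown libraries, against 36.4 CPM in the control. It was below the control in all 4 libraries, with a log2 fold change of -0.31 ± 0.17 (edgeR adjusted p = 0.536).

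Of the 5 spindle checkpoint genes, MAD2L1 was the most displaced. MAD2L1, which encodes the MAD2 protein that binds and restrains CDC20 (ENSG00000164109, chromosome 4, 120055608 to 120067074, minus strand), stood at 68.2 and 70.6 CPM in the T24 knockdown libraries, against 102 CPM in the control. Its UMUC3 level was 109 CPM in each knockdown library, against 143 CPM in the control. The knockdown pairs were tight and lay below the control in both lines. The log2 fold change was -0.47 ± 0.11 in both lines (edgeR adjusted p = 0.246, DESeq2 adjusted p = 0.000445). BUB3, a shared adaptor of the checkpoint proteins, stood at 240 and 246 CPM in the T24 knockdown libraries, against 259 CPM in the control, and at 353 and 359 CPM in the UMUC3 knockdown libraries, against 450 CPM in the control. Its log2 fold change was -0.09 ± 0.08 in T24 and -0.34 ± 0.08 in UMUC3 (edgeR adjusted p = 0.680 and 0.164). BUB1, BUB1B and the checkpoint kinase TTK had log2 fold changes between -0.11 and 0.03 in both lines together, and BUB1 and BUB1B were lower in both T24 knockdown libraries and higher in both of UMUC3.

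Among the cyclins, CDK1 and the activating phosphatases, CDC25B was higher in both lines. CDC25B, a phosphatase that removes the inhibitory phosphates of CDK1 (ENSG00000101224, chromosome 20, 3786772 to 3806121, plus strand), stood at 634 and 667 CPM in the T24 knockdown libraries, against 454 CPM in the control. In UMUC3 it stood at 582 and 564 CPM in the knockdown libraries, against 465 CPM in the control. The groups did not overlap in either line. Its log2 fold change was 0.41 ± 0.09 in both lines (edgeR adjusted p = 0.235, DESeq2 adjusted p = 0.0313), with 0.52 ± 0.08 in T24 and 0.30 ± 0.08 in UMUC3. Its relative CDC25C had log2 fold changes of -0.38 ± 0.15 in T24 and 0.07 ± 0.15 in UMUC3.

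CCNB2, a B-type cyclin chosen after its values were seen, stood at 157 CPM in each T24 knockdown library, against 159 CPM in the control. Its UMUC3 level was 161 and 162 CPM in the knockdown libraries, against 103 CPM in the control. The UMUC3 control was thus the 1 library of 6 that stood apart, and the other 5 lay within 157 to 162 CPM. The log2 fold change was -0.02 ± 0.09 in T24 and 0.66 ± 0.10 in UMUC3 (edgeR adjusted p = 0.980 and 0.0873). CCNB1 stood at 296 and 301 CPM in the T24 knockdown libraries, against 333 CPM in the control, and at 133 and 136 CPM in the UMUC3 knockdown libraries, against 120 CPM in the control. CCNA2, the cyclin of S and G2, had log2 fold changes of 0.31 ± 0.09 in T24 and 0.06 ± 0.09 in UMUC3 (edgeR adjusted p = 0.336 and 0.803). CDK1 stood at 16.2 and 8.36 CPM in the T24 knockdown libraries, against 17.9 CPM in the control, and at 12.1 and 11.3 CPM in the UMUC3 knockdown libraries, against 11.7 CPM in the control.

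UBE2C, the E2 enzyme of the anaphase-promoting complex, stood at 290 and 281 CPM in the T24 knockdown libraries, against 261 CPM in the control. In UMUC3 it stood at 409 and 392 CPM in the knockdown libraries, against 295 CPM in the control. All 4 knockdown libraries lay above their control, with a log2 fold change of 0.28 ± 0.11 in both lines and 0.44 ± 0.08 in UMUC3 (edgeR adjusted p = 0.413 and 0.123). CDC20, the activator that the checkpoint restrains, stood at 480 and 457 CPM in the T24 knockdown libraries, against 459 CPM in the control, and at 563 and 529 CPM in the UMUC3 knockdown libraries, against 459 CPM in the control. PTTG1, which encodes securin, had a log2 fold change of -0.08 ± 0.10 in both lines.

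The 5 genes of the centromere and outer kinetochore all had positive fold changes in UMUC3, with a median log2 of 0.43, and a median of 0.04 in T24. Of all 40 genes, 27 were positive in UMUC3, against the same control library. For CENPE (0.15 ± 0.60) and NUF2 (0.07 ± 0.15) the UMUC3 knockdown libraries lay on both sides of the control. CENPF, a large kinetochore and corona protein (ENSG00000117724, chromosome 1, 214603195 to 214664588, plus strand), stood at 321 and 349 CPM in the T24 knockdown libraries, against 327 CPM in the control. Its UMUC3 level was 351 and 409 CPM in the knockdown libraries, against 206 CPM in the control. As for CCNB2, the UMUC3 control was the lowest of the 6 libraries. The log2 fold change in UMUC3 was 0.88 ± 0.14 (edgeR adjusted p = 0.0954, DESeq2 adjusted p = 0.00225). CENPA, the histone H3 variant that marks centromeres, stood at 32.6 and 27.2 CPM in the T24 knockdown libraries, against 42.0 CPM in the control, and at 40.5 and 34.8 CPM in the UMUC3 knockdown libraries, against 26.0 CPM in the control. Its direction was opposite in the lines, at -0.49 ± 0.20 in T24 and 0.54 ± 0.21 in UMUC3 (edgeR adjusted p = 0.439 and 0.320). NDC80 and NUF2, subunits of the microtubule-binding NDC80 complex, had log2 fold changes of 0.20 ± 0.22 and 0.09 ± 0.13 in both lines.

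KIF4A was the mitotic kinesin with the largest shift. KIF4A, which organises the central spindle and chromosome arms (ENSG00000090889, chromosome X, 70290090 to 70420832, plus strand), stood at 22.8 and 27.3 CPM in the T24 knockdown libraries, against 26.4 CPM in the control. In UMUC3 it stood at 35.9 and 31.3 CPM in the knockdown libraries, against 14.0 CPM in the control. The control lay between the knockdown libraries in T24 and below both in UMUC3. Reads of KIF4A may be shared with its retrocopy KIF4B, and those of PTTG1 with PTTG2 and PTTG3P, so the counts of these genes are less certain. The log2 fold change was -0.08 ± 0.21 in T24 and 1.26 ± 0.22 in UMUC3 (edgeR adjusted p = 0.924 and 0.114, DESeq2 adjusted p = 0.000521 in UMUC3). KIF2C, a microtubule depolymerase at centromeres, stood at 241 and 239 CPM in the T24 knockdown libraries, against 288 CPM in the control, and at 201 and 200 CPM in the UMUC3 knockdown libraries, against 217 CPM in the control. KIF11, the motor that separates spindle poles, and KIF20A, a motor of cytokinesis, had log2 fold changes of 0.15 and 0.00 in both lines. KIF23 stood at 131 and 56.9 CPM in the T24 knockdown libraries, against 51.1 CPM in the control, so a single knockdown library stood apart.

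TPX2, which targets Aurora A to the spindle, stood at 776 and 827 CPM in the T24 knockdown libraries, against 780 CPM in the control, and at 634 and 662 CPM in the UMUC3 knockdown libraries, against 545 CPM in the control. The microtubule bundlers PRC1 and NUSAP1 had log2 fold changes of 0.06 ± 0.12 and 0.03 ± 0.18 in both lines. TOP2A, the topoisomerase that untangles sister chromatids, was the most counted of the 40 genes, at 874 and 895 CPM in the T24 knockdown libraries, against 846 CPM in the control. In UMUC3 it was at 769 and 840 CPM in the knockdown libraries, against 756 CPM in the control. MKI67, the proliferation marker Ki-67, had a log2 fold change of -0.02 ± 0.15 in both lines. FOXM1, the transcription factor that activates many of these genes, stood at 27.3 and 22.4 CPM in the T24 knockdown libraries, against 32.5 CPM in the control, and at 31.4 and 56.2 CPM in the UMUC3 knockdown libraries, against 33.2 CPM in the control. Its UMUC3 knockdown libraries lay on both sides of the control.

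In the chromosomal passenger complex, CDCA8 (borealin) stood at 172 and 176 CPM in the T24 knockdown libraries, against 174 CPM in the control, and at 131 and 130 CPM in the UMUC3 knockdown libraries, against 135 CPM in the control, the least displaced of its 4 genes. BIRC5 (survivin) stood at 81.6 and 44.0 CPM in the T24 knockdown libraries, against 77.7 CPM in the control, and at 71.4 and 110 CPM in the UMUC3 knockdown libraries, against 38.0 CPM in the control. AURKB, the kinase of the complex, had log2 fold changes of -0.03 ± 0.20 in T24 and 0.40 ± 0.21 in UMUC3 (edgeR adjusted p = 0.990 and 0.430).

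**Figure D3:**
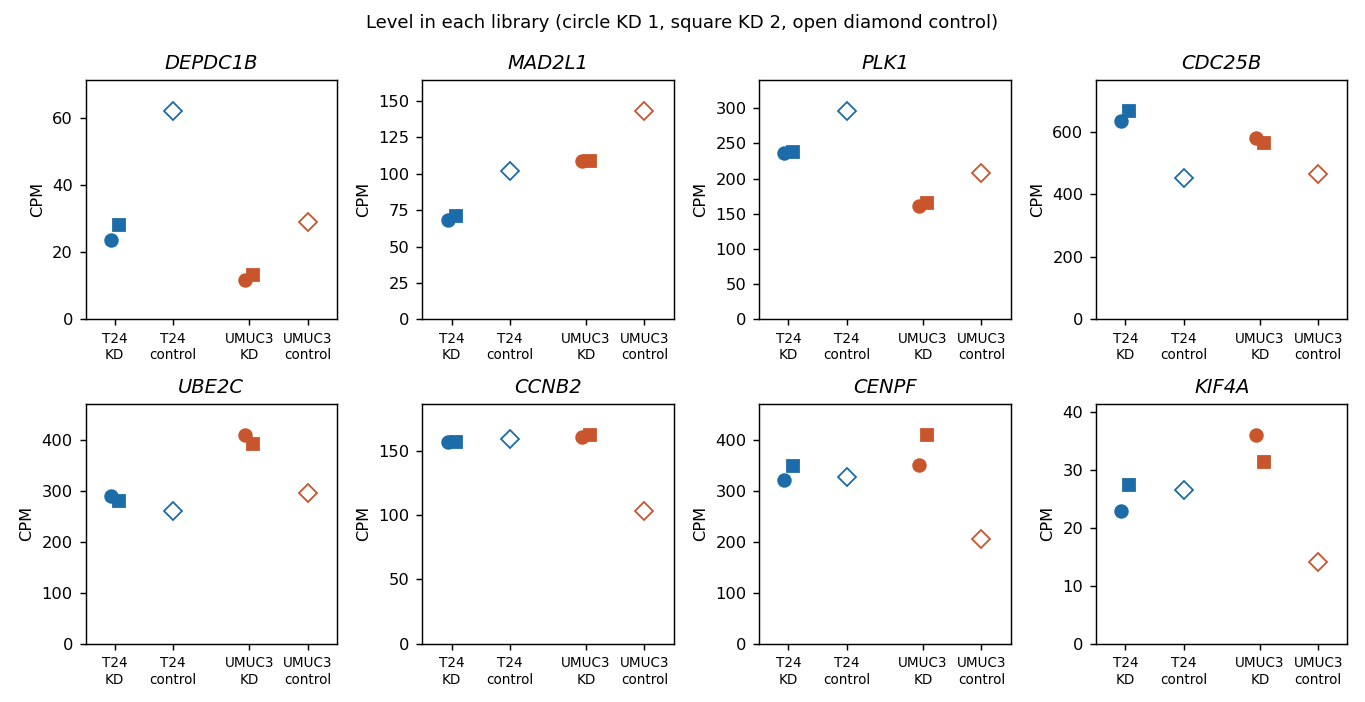
CPM (vertical axis, from 0) in each library for 8 genes; filled circles and squares are knockdown replicates 1 and 2, open diamonds the controls, with T24 in blue and UMUC3 in orange. DEPDC1B, MAD2L1 and PLK1 lie below and CDC25B and UBE2C above the control in both lines, while CCNB2, CENPF and KIF4A are set apart by the UMUC3 control.

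Whether knockdown acted differently in the lines was tested as T24 effect minus UMUC3 effect. KIF4A, CENPF and CCNB2 were higher in the UMUC3 knockdown libraries and near the control in T24, and BIRC5 and CENPA had fold changes of opposite sign in the lines. edgeR called 0 of the 40 genes (0.0579% of all genes passed), with 4 at an unadjusted p under 0.05 (13.5% of all genes). DESeq2 called 1, KIF4A (adjusted p = 0.0247, with 7.04% of all genes called), and limma voom called 0. The fitted differences in log2 fold change were -1.34 for KIF4A (edgeR adjusted p = 0.233), -0.85 for CENPF (adjusted p = 0.227), -0.67 for CCNB2 (adjusted p = 0.198) and -1.03 for CENPA (adjusted p = 0.296). The widest difference, -1.57 ± 0.71 for BIRC5 (edgeR adjusted p = 0.459), came with knockdown libraries of T24 on both sides of the control. ASPM and KIF23 differed the other way, by 0.95 ± 2.05 and 0.82 ± 0.79 (edgeR adjusted p = 0.922 and 0.723). For DEPDC1B the difference was -0.04 (adjusted p = 1.00) and for PLK1 0.04 (adjusted p = 0.981). The comparisons of a line share its single control, so a control library that stands apart enters every value of that line.

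The lines differed from each other in 18 of the 40 genes. T24 cells held more CCNB1, PRC1, NDC80 and DEPDC1B mRNA, by more than 1 on the log2 scale, and also more AURKA, PLK1, CDCA8, TPX2 and KIF2C. UMUC3 cells held more RNA of 4 of the 5 checkpoint genes, TTK, BUB3, MAD2L1 and BUB1. They also held more MKI67, PTTG1, ANLN, KIF11 and UBE2C. edgeR thus called 9 genes higher in T24 than in UMUC3 (21.3% of all genes) and 9 lower (18.9% of all genes), together 45.0% of the 40, against 40.2% of all tested genes, a share near the background. At an unadjusted p under 0.05 there were 21 (49.9% of all genes). DESeq2 called 20 (47.1% of all genes), adding ASPM and ECT2. With only the leading transcript of each gene, edgeR called 11 of the 40 (23.3% of all genes tested that way). The median log2 fold change, T24 over UMUC3, was 0.10, against 0.02 over all genes, and it was 0.30 between the controls and 0.02 between the knockdown libraries.

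CCNB1 (ENSG00000134057, chromosome 5, 69167010 to 69178245, plus strand) averaged 310 ± 20.3 CPM in T24 and 129 ± 8.56 CPM in UMUC3 (SD, n = 3 libraries each), a log2 fold change of 1.26 ± 0.11 (edgeR adjusted p = 0.000672). The other B cyclin, CCNB2, averaged 158 ± 1.13 CPM in T24 and 142 ± 34.1 CPM in UMUC3, with 0.18 ± 0.16 (edgeR adjusted p = 0.422). PRC1 (ENSG00000198901, chromosome 15, 90966038 to 90995629, minus strand) stood at 278, 338 and 317 CPM in T24 and at 146, 139 and 128 CPM in UMUC3, a log2 fold change of 1.18 ± 0.12 (edgeR adjusted p = 0.00109). The T24 libraries lay above all UMUC3 libraries for both CCNB1 and PRC1. NDC80 averaged 72.8 ± 10.7 CPM in T24 and 33.6 ± 7.44 CPM in UMUC3 (log2 fold change 1.13 ± 0.20), while its partner NUF2 averaged 78.3 ± 3.73 CPM in T24 and 73.3 ± 6.15 CPM in UMUC3 (0.10 ± 0.12). DEPDC1B had a log2 fold change of 1.07 ± 0.16 between the lines (edgeR adjusted p = 0.00402), but its T24 knockdown libraries at 23.7 and 28.0 CPM lay below the UMUC3 control at 29 CPM. PLK1 averaged 257 ± 34.0 CPM in T24 and 178 ± 26.3 CPM in UMUC3, and AURKA 55.7 ± 12.2 CPM in T24 and 33.7 ± 2.39 CPM in UMUC3. Their log2 fold changes were 0.53 ± 0.09 and 0.71 ± 0.16 (edgeR adjusted p = 0.00605 and 0.0173). TPX2, CDCA8 and KIF2C were higher in T24 by 0.38, 0.40 and 0.31 on the log2 scale.

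On the other side, TTK (ENSG00000112742, chromosome 6, 80003887 to 80042527, plus strand), the kinase that starts checkpoint signalling, averaged 59.4 ± 4.10 CPM in T24 and 128 ± 10.9 CPM in UMUC3, a log2 fold change of -1.11 ± 0.13 (edgeR adjusted p = 0.00179). MKI67 averaged 72.3 ± 9.36 CPM in T24 and 132 ± 9.53 CPM in UMUC3 (log2 fold change -0.86 ± 0.14, edgeR adjusted p = 0.00622). BUB3, MAD2L1 and BUB1 had log2 fold changes of -0.63, -0.60 and -0.60, and for each of them all 3 T24 libraries lay below all 3 UMUC3 libraries. Of the BUB1 counts, 75.6 to 96.8% in each library lay in ENST00000466333, a transcript annotated as a retained intron. BUB1B, the fifth checkpoint gene, had 0.27 ± 0.16 (edgeR adjusted p = 0.221). PTTG1 averaged 146 ± 7.73 CPM in T24 and 248 ± 14.4 CPM in UMUC3 (-0.77 ± 0.10, edgeR adjusted p = 0.00261), and UBE2C 277 ± 15.1 CPM in T24 and 365 ± 61.8 CPM in UMUC3 (-0.38 ± 0.10, edgeR adjusted p = 0.0307). ANLN and KIF11 were lower in T24 by -0.55 and -0.42 on the log2 scale. In all, 11 of the 40 genes had every T24 library above every UMUC3 library (27.5%, against 27.2% of all genes) and 11 had every T24 library below (27.5%, against 25.1%).

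Counts of several genes moved between transcripts from library to library. How far this went is given as a composition shift, the part of a gene's counts that would have to move to other transcripts to turn one library's make-up into another's, at its maximum within a line. Of 39 genes with at least 2 transcripts, 21 had a shift under 0.2 in both lines (53.8%, against 33.8% of 13220 tested genes with a value), and 8 had a shift of 0.5 or more (20.5%, against 38.4%). INCENP, the scaffold of the passenger complex, shifted most, by 0.97 in T24 and 0.98 in UMUC3. It stood at 176 and 23.6 CPM in the T24 knockdown libraries, against 28.9 CPM in the control, and at 129 and 17.2 CPM in the UMUC3 knockdown libraries, against 14.2 CPM in the control. In both lines knockdown replicate 1 stood apart, and there 97.8 and 98.3% of the counts lay in ENST00000278849, a transcript with at most 0.77% of the gene's counts in the other 4 libraries. The other libraries had 82.5 to 88.6% in ENST00000394818. ASPM, a spindle pole protein, stood at 36.4 and 267 CPM in the T24 knockdown libraries, against 29.8 CPM in the control, and at 45.8 and 14.3 CPM in the UMUC3 knockdown libraries, against 11.4 CPM in the control. Its large fold change in both lines, 1.87 ± 0.96 (edgeR adjusted p = 0.527), thus rested on a single library of each line.

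ECT2 changed its leading transcript in T24 while its sum stayed close to the control. Its counts lay for 90.5 and 72.4% in ENST00000540509 in the T24 knockdown libraries, against 2.03% in the T24 control, where ENST00000417960 held 68.9%. In UMUC3, ENST00000540509 held 88.1 and 71.1% in the knockdown libraries, against 86.2% in the control. The sum was 258 and 280 CPM in the T24 knockdown libraries, against 252 CPM in the control. In UMUC3 the sum was 347 and 395 CPM in the knockdown libraries, against 281 CPM in the control, a log2 fold change of 0.40 ± 0.12 (edgeR adjusted p = 0.234). PTTG1 likewise had 75.6 and 78.3% of its counts in ENST00000520452 in the T24 knockdown libraries, against 8.11% in the control, but 9.84 and 73.6% in the UMUC3 knockdown libraries, against 12.1% in the control. DEPDC1B, PLK1, MAD2L1, CDC25B, CCNB2, CENPF and KIF4A had shifts of at most 0.05 in both lines. The authors assigned reads to transcripts, and the part of this assignment in the shifts was not tested.

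**Figure D4:**
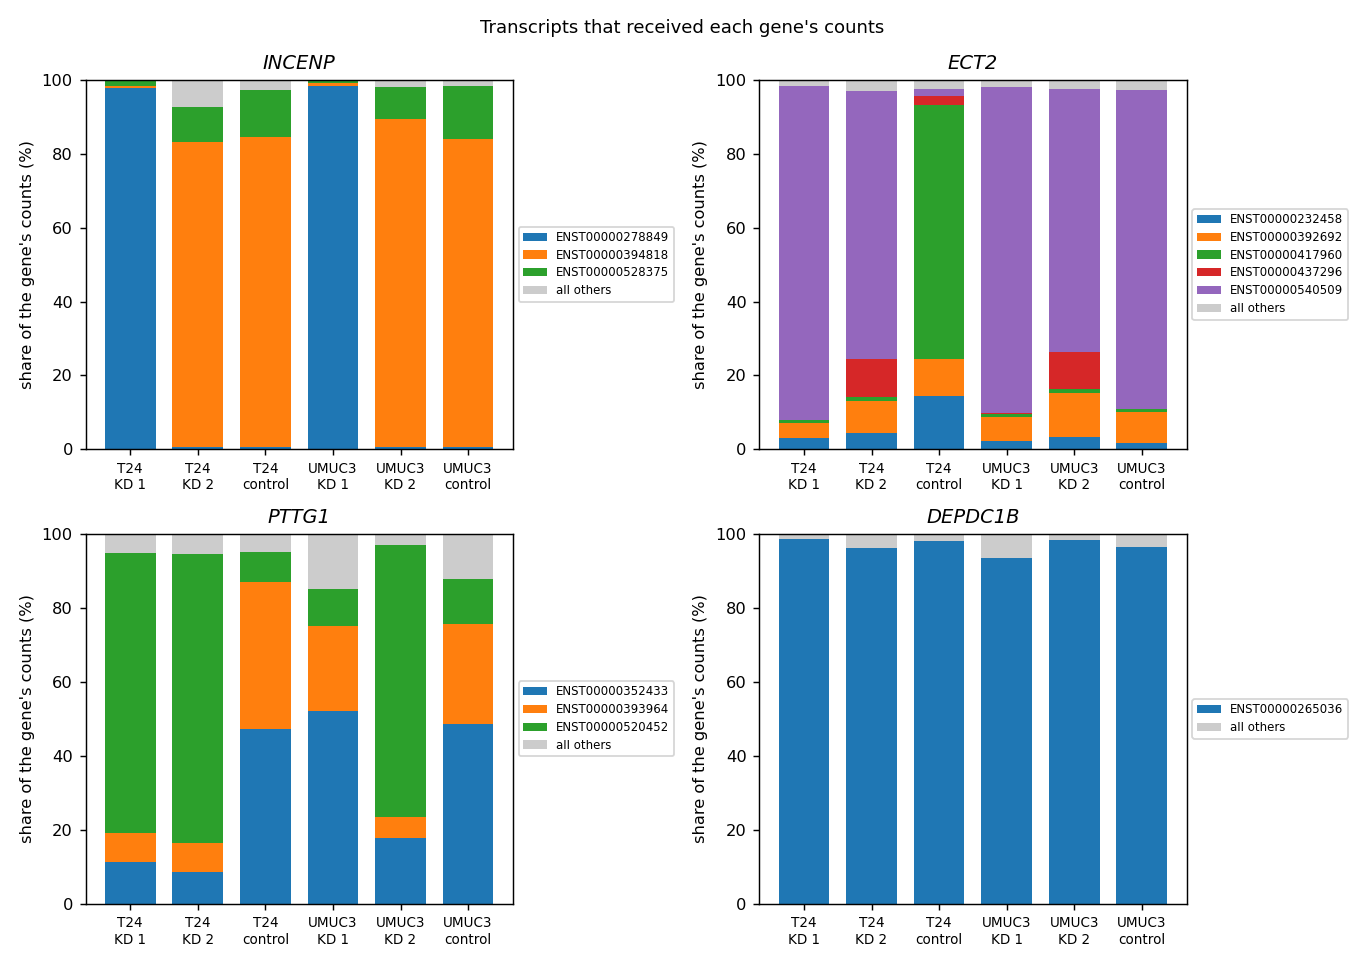
Share of the counts of INCENP, ECT2, PTTG1 and DEPDC1B (%, vertical axis) that lay in each transcript with at least 10% in some library; columns are the 6 libraries and grey is the rest. INCENP has 97.8 and 98.3% in a different transcript in knockdown replicate 1 of T24 and UMUC3, while DEPDC1B has 1 leading transcript in every library.

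The wider mitotic machinery held 2 edgeR calls after knockdown, both in UMUC3, where 0.647% of all genes were called. Of 32 other kinetochore and centromere genes, 31 other spindle and cytokinesis genes, 18 genes of condensin, cohesin and chromatid separation, 17 genes of the anaphase-promoting complex and 18 genes of G2/M entry control, edgeR called 0 in both lines together (0.0145% of all genes) and 0 in T24 (0.135%). In both lines 4, 3, 1, 3 and 5 of them had an unadjusted p under 0.05, where 11.6% of all genes did. In T24 the numbers were 8, 4, 3, 3 and 10, where 12.5% of all genes did, and the 10 were of 18 G2/M entry genes. In UMUC3 they were 9, 7, 2, 4 and 4, where 16.8% of all genes did. DESeq2 called 2, 1, 0, 2 and 2 in both lines (5.48% of all genes), 3, 2, 2, 2 and 5 in T24 (6.49%) and 6, 4, 1, 1 and 4 in UMUC3 (10.8%), and limma voom called 0 in these comparisons. In UMUC3 1 kinetochore gene and 1 cohesin gene rose. SKA2, a subunit of the SKA complex that couples kinetochores to microtubules, stood at 85.5 and 85.8 CPM in the UMUC3 knockdown libraries, against 33.2 CPM in the control (log2 fold change 1.37 ± 0.13, edgeR adjusted p = 0.0497). SMC1A, a core subunit of cohesin, stood at 144 and 151 CPM in the UMUC3 knockdown libraries, against 63.6 CPM in the control (1.22 ± 0.09, adjusted p = 0.0439). In both cases the UMUC3 control was again low, as for CCNB2, CENPF and KIF4A.

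Of 24 transcriptional regulators of G2/M genes, 0 were called in both lines and in T24 by edgeR (6 at an unadjusted p under 0.05 in each, against 11.6 and 12.5% of all genes, DESeq2 2 and 3, limma voom 0). In UMUC3 3 fell by edgeR (0.647% of all genes were called), with 9 at an unadjusted p under 0.05 (16.8% of all genes), 7 called by DESeq2 (10.8%) and 0 by limma voom. CDKN1A, the CDK inhibitor p21 that acts through DREAM to lower these genes, stood at 95.6 and 80.8 CPM in the UMUC3 knockdown libraries, against 444 CPM in the control (log2 fold change -2.33 ± 0.15, edgeR adjusted p = 0.0421). In T24 it stood at 57.0 and 50.5 CPM in the knockdown libraries, against 91.7 CPM in the control (-0.77 ± 0.15, adjusted p = 0.194). NFYA, a subunit of the CCAAT-binding factor NF-Y, fell by 3.21 on the log2 scale in UMUC3 (adjusted p = 0.0431), to 2.68 and 3.22 CPM in the knockdown libraries, against 27.3 CPM in the control. RBL1, the p107 pocket protein, named because it completes the 3, stood at 14.8 and 13.9 CPM in the UMUC3 knockdown libraries, against 55.4 CPM in the control (-1.95 ± 0.14, edgeR adjusted p = 0.0432). MYBL2, the B-MYB of the activating complex, stood at 443 and 419 CPM in the T24 knockdown libraries, against 357 CPM in the control, and at 522 and 477 CPM in the UMUC3 knockdown libraries, against 303 CPM in the control. Its log2 fold change in both lines was 0.49 ± 0.13 (edgeR adjusted p = 0.295). E2F1 had -0.63 ± 0.13 in T24 and 0.98 ± 0.14 in UMUC3, a difference of -1.61 ± 0.19 (edgeR adjusted p = 0.116). LIN54, the MuvB subunit that contacts the CHR, had 0.10 ± 0.14 in both lines.

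The 33 DNA replication genes had a median log2 fold change of -0.36 in T24 and 0.15 in UMUC3, with 0 calls by edgeR in either line and 18 in T24 and 10 in UMUC3 at an unadjusted p under 0.05, against 12.5 and 16.8% of all genes. DESeq2 called 8 in T24 (6.49% of all genes) and 4 in UMUC3 (10.8%), and limma voom called 0 in both. The mitotic genes and the replication genes thus shared a median of 0.15 in UMUC3, and in T24 the medians were 0.00 and -0.36. Between the lines, 2 replication genes were higher and 11 lower in T24, with a median of -0.45, against 9 and 9 and a median of 0.10 for the 40 mitotic genes. Of all tested genes, 21.3% were called higher and 18.9% lower in T24. The difference between the lists was not tested.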

How the data were processed

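RNA-seq counts per transcript had been deposited by the authors for 6 libraries in 1 table. The values are whole-number raw counts with no normalization. Per the submitters' processing notes the tools, in no stated order, include StringTie 1.3.3b, HISAT2 2.1.0 and FastQC 0.11.5, on the build hg38. The counting tool, the library kit and its strandedness are not given in the sources used here. Of 136953 transcripts, 15038 carried no gene and 14.9 to 16.1% of each library's counts, and these rows entered neither library sizes nor tests. Counts were summed to 30717 genes, and genes with at least 10 counts in 2 libraries and 30 in all were tested (20721 genes). edgeR 4.0.16 (R 4.3.3) with TMM factors, the bias-adjusted robust quasi-likelihood fit and Benjamini-Hochberg adjustment over all tested genes at 0.05 gave the main results. The additive fit of line and knockdown served both lines together and T24 over UMUC3, and a fit of 4 groups served single lines and their difference. CPM used TMM factors. TPM used GENCODE 29 transcript lengths, which were found for 121842 of the 121915 transcripts with a gene. DESeq2 1.42.0 and limma voom 3.58.1 were alternatives. The edgeR step was tested on simulated data. Genes named with library values were those past the threshold, the 4 highest and 4 lowest fold changes per comparison, the 3 largest composition shifts and the most counted gene of each role. The members and lists were chosen with earlier results of these data known. Libraries with the same siRNA number did not deviate together (correlation -0.000713 over 13419 genes by titles), so the numbers were not taken as pairs. Replicates of a knockdown pair differed beyond sampling noise (chi-square per degree of freedom 120 in T24 and 117 in UMUC3).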

Additional observations from a re-analysis of the deposited data

How the results depend on the processing

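The number of the 40 genes past an adjusted p of 0.05 after knockdown was 0 by edgeR, while DESeq2 gave 4 in both lines, 3 in T24, 4 in UMUC3 and 1 for the difference between the lines. Restriction to composition-stable genes, which tests fewer genes, gave 1, 2 and 5 in both lines, T24 and UMUC3. Other tools, filters and scalings left these counts at 0. By limma voom, 0 of all genes were called in T24 and in UMUC3, so its 0 there was not particular to the 40. Leaving out a knockdown library leaves 1 knockdown and 1 control library in its line. Such fits cannot show whether these counts hold. The count for T24 over UMUC3, 18 in the reported test, was 11 with only the leading transcript of each gene (23.3% of all genes, against 40.2% in the reported test) and 12 to 18 with 1 library left out (28.3 to 34.7% of all genes), and 10 of the 18 genes missed the threshold in at least 1 alternative: AURKA, BUB1, BUB3, CDCA8, KIF11, KIF2C, MKI67, PTTG1, TPX2 and UBE2C. The median log2 fold change of T24 over UMUC3, 0.10 as reported, was 0.14 with composition-stable genes, 0.30 with controls only, 0.02 with knockdown libraries only, 0.16 with the leading transcript and 0.07 without scaling factors, and 0.01 to 0.16 with 1 library left out. The T24 knockdown median was -0.05 without scaling factors and -0.02 to 0.01 with 1 library left out. The UMUC3 median was 0.06 to 0.18, and that of both lines 0.13 with the leading transcript and -0.00 to 0.15 with 1 library left out. Where the library left out was a control, the value for both lines came from the other line alone. Without scaling factors the median over all tested genes moved by -0.0494 in T24 and by -0.0282 for T24 over UMUC3. CDC25C in T24 was 2.79 with the leading transcript (edgeR adjusted p = 0.746), against -0.38 as reported. That transcript, ENST00000415130, had 56 and 822 counts in T24 knockdown replicates 1 and 2, against 63 in the control. The causes of these shifts were not tested. With a replicate block by siRNA number, edgeR called 15 genes for T24 over UMUC3 by column-name numbers (32.9% of all genes) and 14 by title numbers (5184 of 20721 genes). It called 0 of the 40 in every knockdown comparison. There 0 of all 20721 genes were called with either numbering, so this 0 was not particular to the 40. The title-number block gave no value in the bias-adjusted fit and was run with the legacy fit, an alternative chosen after seeing the data, as was the legacy fit without a block. Of the alternatives for single genes, 780 kept direction and side of the threshold, 20 moved past it, 41 missed it and 1 reversed. A single control library per line limits every knockdown comparison.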
